A study of Homo sapiens with 8 samples.

Results

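The insulin-like growth factor (IGF) axis was described here by 10 genes: the ligands IGF1 and IGF2, the receptors IGF1R and IGF2R, and the binding proteins IGFBP2, IGFBP3, IGFBP4, IGFBP5, IGFBP6 and IGFBP7. They were taken by symbol from a count table of 60666 Ensembl gene IDs, and all 10 were found in it. Of these, 9 were among the 13493 genes that passed the filter on low counts (an average of 1 CPM or more over the 8 libraries, where CPM are counts scaled to a common library total) and were tested. IGFBP2 did not pass.

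The data are bulk RNA-seq libraries of MRC5, a human lung fibroblast cell line, in 4 groups of 2. The control groups carried a mock hairpin (shMock) or a hairpin against the mitochondrial folate enzyme MTHFD2 (shMTHFD2) and were labelled as controls. The other 2 groups carried the same hairpins and were labelled as given TGF-β1, a cytokine that activates fibroblasts, with 4 ng (no volume stated) and 24 h of incubation in the protocol. All 8 libraries therefore came from hairpin-carrying cells, with 1 hairpin per line and neither rescued nor untransduced cells among them, so loss of MTHFD2 and other differences between the lines cannot be told apart. The protocol for TGF-β1 is attached to the control samples as well, the genotype field of 3 shMTHFD2 samples names other genes, and the extraction text mentions another cell line and hairpin. Groups were taken from the sample titles. Separate cultures are not stated for the replicates, so the p-values rest on a spread that may be partly technical.

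IGF1 and IGF2 are secreted peptides that signal through the receptor tyrosine kinase IGF1R towards the IRS, PI3K, AKT and mTOR pathway, which favours growth and survival. IGF2R has no kinase and carries IGF2 to lysosomes for breakdown. The IGF-binding proteins hold the ligands in the extracellular space, and proteases such as PAPPA release them again. Fibroblasts are a source of IGFs and their binding proteins in the lung, and IGFBP3 is a long-known target of TGF-β in mesenchymal cells.

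Library totals ran from 18162738 to 22221927 counts, and 3 counts, used as the floor of detection, stood at 0.135 to 0.172 CPM (counting error only). Replicates of a group differed by more than counting error, with a chi-square per degree of freedom of 6.09 to 9.95. MTHFD2 stood at 57.1 to 58.8 CPM in shMock control and 14.9 to 18.7 CPM in shMTHFD2 control. With TGF-β1 the levels were 256 to 258 CPM and 91.9 to 93.8 CPM, so in both conditions the knockdown libraries lay below shMock. All 12 fibroblast markers were at a mean of 1 CPM or more, and all 7 myofibroblast markers, which summed to 10637 to 14073 CPM in the control libraries and 28907 to 31924 CPM with TGF-β1. Of 12 epithelial markers 2 were (KRT8 and KRT18), KRT5, KRT19, SFTPC, NKX2-1 and ESRP1 had no counts in any library, and the list summed to 25.9 to 37.7 CPM. Of 6 endothelial markers 3 were, with PECAM1, CDH5 and CLDN5 at 0, and of 6 immune markers 1 was (CD68), with CD3E at 0. The summed level of the endothelial list was 96.8 to 110.1 CPM in the control libraries and 40.8 to 48.9 CPM with TGF-β1, and that of the immune list 75 to 106 CPM and 47.2 to 58.6 CPM. The fibroblast list summed to 30942 to 37010 CPM in the control libraries and 50207 to 54669 CPM with TGF-β1. Its markers did not all rise. COL1A1, which is also on the myofibroblast list, stood at 9624 to 12514 CPM and 23430 to 26189 CPM. The group means of COL3A1, LUM, DCN, S100A4 and TCF21 were lower with TGF-β1 in both lines, and those of the other markers were higher. The sums of the endothelial, immune, fibroblast and myofibroblast lists therefore moved with the treatment beside every TGF-β1 difference given here. Their part in it was not tested. The smooth muscle and pericyte list had 4 of 6 markers at 1 CPM or more and DES at 0. Its sum separated the lines, at 324 to 366 CPM in the shMock libraries and 258 to 292 CPM in the shMTHFD2 libraries. This came from MCAM, at 157 to 160 against 85.4 to 93.5 CPM among the controls and 213 to 214 against 132 to 141 CPM among the treated libraries. CSPG4 and RGS5 overlapped between the lines in both conditions. NOTCH3 overlapped among the controls and was higher in shMTHFD2 among the treated libraries. The immune list also separated the lines, at 101 to 106 CPM in shMock against 75 to 76.4 CPM in shMTHFD2 among the controls, and at 53.5 to 58.6 against 47.2 to 51.1 CPM among the treated libraries. The control libraries alone were separated by the myofibroblast list (12273 to 14073 CPM in shMock, 10637 to 11894 CPM in shMTHFD2), the fibroblast list (33688 to 37010 and 30942 to 33253 CPM) and the epithelial list (35.01 to 36.1 and 25.9 to 33.9 CPM). The part of these lists in the differences between the lines was not tested.

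With TGF-β1, IGF1, IGF2, IGF1R, IGFBP3 and IGFBP7 rose and IGFBP4 and IGFBP6 fell in both lines, IGFBP5 fell in shMock, and IGF2R did not pass the test. In shMock cells, 5 of the 9 tested members rose and 3 fell (edgeR quasi-likelihood test, adjusted p under 0.05), which is 8 of 9 beside 35.4% of all tested genes. By direction, 17.3% of all tested genes rose and 18.1% fell. In shMTHFD2 cells 5 rose and 2 fell, beside 23.8% of all genes called, 12.8% higher and 11.0% lower. The median log2 fold change of the 9 members was 0.57 in shMock and 0.64 in shMTHFD2, against -0.02 and -0.01 over all tested genes. Scaling on library totals alone gave 1570 genes higher and 3932 lower in shMock, against 2333 and 2443 here, and 1222 and 2455 in shMTHFD2, against 1725 and 1489, while the members kept their directions except IGF2R in shMTHFD2 (-0.05). IGF1 passed the filter only through its level with TGF-β1, so its place among the tested members is not independent of its response. In bulk RNA, a change in the share of cells that express a gene and a change in the amount per cell cannot be told apart.

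**Figure D1:**
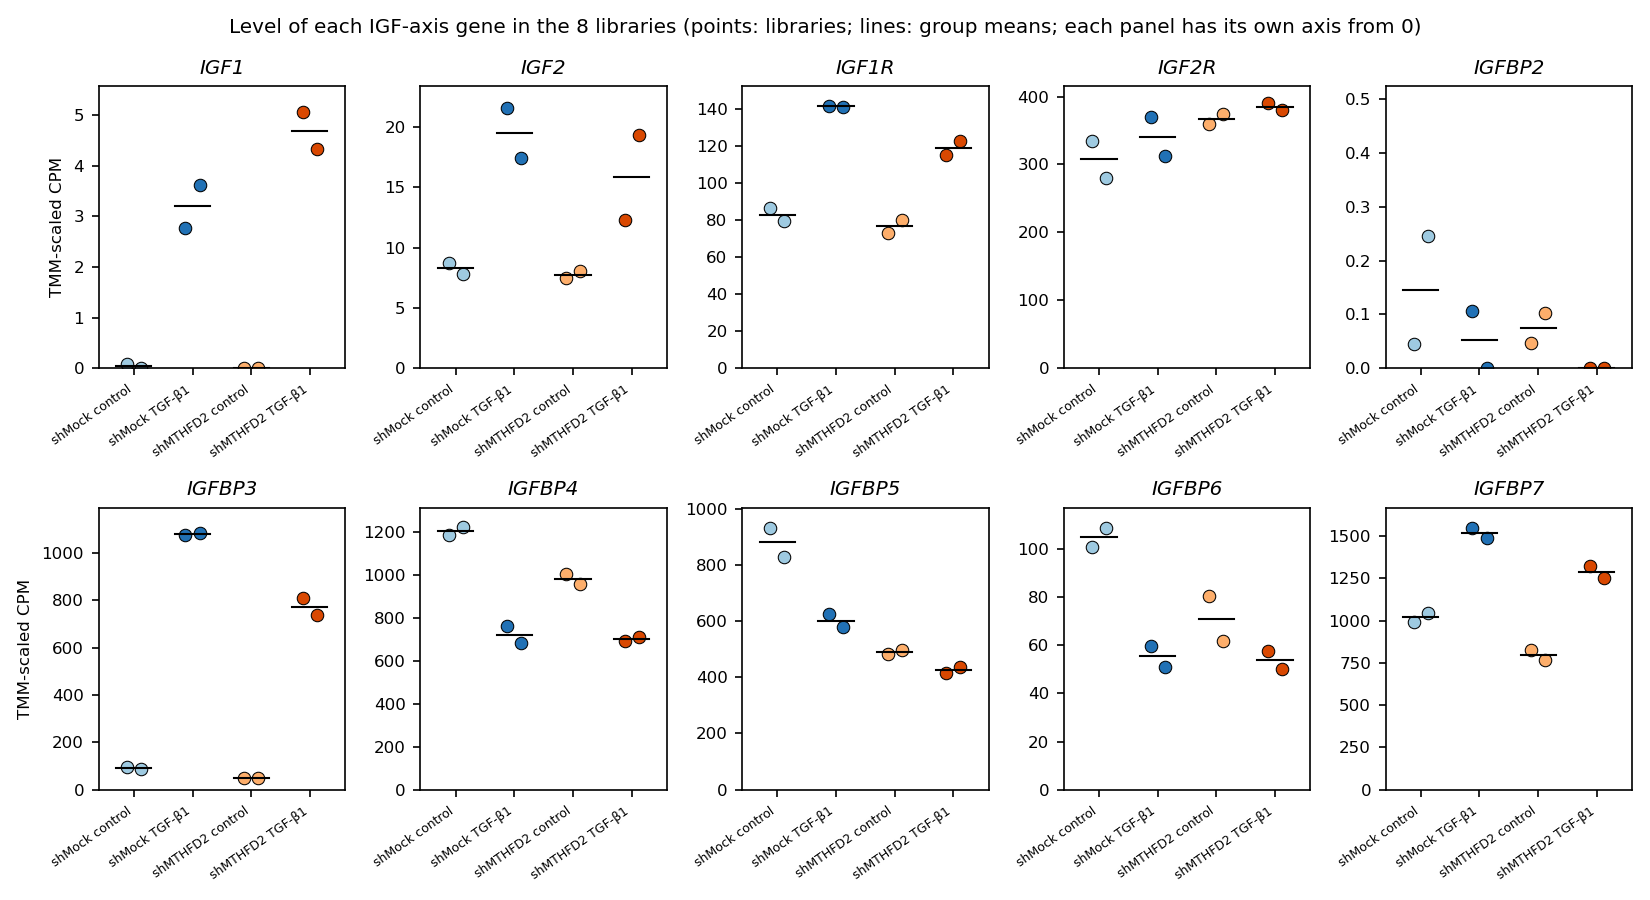
Level of each of the 10 IGF-axis genes in TMM-scaled CPM on the vertical axis, each panel with its own axis from 0. Points are the 8 libraries by group and lines are group means of 2 libraries. IGFBP3 stands at 48.2 to 94.1 CPM in the control libraries and at 737 to 1084 CPM with TGF-β1, and IGFBP2 is at or below 0.247 CPM throughout.

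Of the ligands, IGF1 (ENSG00000017427, GRCh38 chromosome 12, 102395874 to 102481744, minus strand) had 2 and 0 counts in the shMock control libraries and 0 counts in both shMTHFD2 control libraries. With TGF-β1 it had 52 and 63 counts in shMock (2.77 and 3.61 CPM) and 99 and 85 counts in shMTHFD2 (5.05 and 4.32 CPM). The gene was thus at or below the floor in all 4 control libraries and above it in all 4 treated libraries. In shMock the summed counts were 115 against 2, a ratio of 67.6 after scaling (exact binomial 95% interval 18.3 to 565, counting error only). In shMTHFD2, 184 counts against 0 put the treated level at least 64.0-fold higher, measured against a floor of 3 counts over the group. The edgeR test called both differences (adjusted p = 1.06e-05 and 2.2e-06). Both control counts of shMock were in shMock control 1, and without it the fitted log2 fold change, which depends on the prior count, went from 5.91 to 8.96 (edgeR adjusted p = 4.6e-05). Both treated shMTHFD2 libraries lay above both treated shMock libraries, but the difference between the lines with TGF-β1 did not pass (log2 fold change of 0.55 with SE 0.40, edgeR adjusted p = 0.40), and without TGF-β1 both lines were at the floor and no fold is given. HELLPAR, a non-coding RNA on the opposite strand that overlaps IGF1, had 53 counts in all 8 libraries together. Whether the authors counted by strand is not given in the sources used here.

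IGF2 (ENSG00000167244, chromosome 11, 2129112 to 2149603, minus strand), the growth factor that is most active before birth, was present in every library. It stood at 8.76 and 7.79 CPM in shMock control and 21.6 and 17.4 CPM with TGF-β1, and at 7.46 and 8.06 CPM in shMTHFD2 control and 12.3 and 19.4 CPM with TGF-β1. In each line both treated libraries lay above both controls, while the treated libraries of the lines overlapped. The rise was 2.36-fold in shMock (log2 fold change of 1.24 with SE 0.20, edgeR adjusted p = 1.9e-04) and 2.04-fold in shMTHFD2 (1.03, SE 0.20, edgeR adjusted p = 0.0013). The latter leans on the second treated shMTHFD2 library, without which it was 0.67 (edgeR adjusted p = 0.033). The lines differed neither without TGF-β1 (-0.10, SE 0.21, edgeR adjusted p = 0.83) nor with it (-0.30, SE 0.19, edgeR adjusted p = 0.34) past the threshold. Genes overlapping IGF2 had few counts: the same-strand AC132217.1 had 76 and the antisense IGF2-AS 15 over all libraries, and INS-IGF2 and a second ID named IGF2 had 0. H19, the imprinted non-coding RNA 128 kb from IGF2, had 0 counts in all 8 libraries.

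Among the receptors, IGF1R (ENSG00000140443, chromosome 15, 98648539 to 98964530, plus strand) rose with TGF-β1. Its level was 86.3 and 79.5 CPM in shMock control and 142 and 141 CPM with TGF-β1, and 73.0 and 80.1 CPM in shMTHFD2 control and 115 and 123 CPM with TGF-β1. Treated and control libraries did not overlap. The rise was 1.70-fold in shMock (log2 fold change of 0.77 with SE 0.08, edgeR adjusted p = 3.3e-06) and 1.55-fold in shMTHFD2 (0.64, SE 0.08, edgeR adjusted p = 3.2e-05). Both treated shMTHFD2 libraries lay below both treated shMock libraries, but this difference did not pass the threshold (-0.25, SE 0.08, edgeR adjusted p = 0.059). It did pass with DESeq2 (adjusted p = 0.0445) and with offsets for GC content and gene length (edgeR adjusted p = 0.0128).

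IGF2R (ENSG00000197081, chromosome 6, 159969099 to 160113507, plus strand), the scavenger of IGF2, stood at 335 and 279.7 CPM in shMock control and 370.2 and 312 CPM with TGF-β1, and at 360.2 and 374 CPM in shMTHFD2 control and 390.3 and 379.8 CPM with TGF-β1. In shMock the treated and control libraries overlapped, and the log2 fold change was 0.15 (SE 0.10, edgeR adjusted p = 0.27). In shMTHFD2 it was 0.07 (SE 0.10, edgeR adjusted p = 0.68). In each condition both shMTHFD2 libraries lay above both shMock libraries. Between the lines the log2 fold change was 0.26 without TGF-β1 (SE 0.10, edgeR adjusted p = 0.12) and 0.18 with it (SE 0.10, edgeR adjusted p = 0.28), neither past the threshold. The former passed when libraries were scaled on their totals (edgeR adjusted p = 0.0322) or when no low-count filter was used (0.0417).

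The RefSeq promoter table (GRCh38.p14) held entries for 8 of the 10 members, and IGF2 and IGFBP7 were not among them. The windows of 4 genes with unlike responses are shown, each the 250 bases before the annotated start, written 5′ to 3′ on the gene's strand, with capitals marking matches on either strand to GGGCGG, the core of the site read by SP1 factors, or to TATANA, which is a TATA-box pattern. IGFBP3 and IGF1 rose most with TGF-β1, and IGFBP4 and IGFBP5 fell in shMock.
IGFBP3, chr7:45921273-45921522, minus strand: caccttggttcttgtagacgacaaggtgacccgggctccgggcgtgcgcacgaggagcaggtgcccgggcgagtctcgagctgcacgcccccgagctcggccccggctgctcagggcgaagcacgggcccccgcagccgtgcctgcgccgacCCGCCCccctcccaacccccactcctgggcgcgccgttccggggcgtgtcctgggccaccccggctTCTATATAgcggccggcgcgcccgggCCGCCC
IGF1, chr12:102481748-102481997, minus strand: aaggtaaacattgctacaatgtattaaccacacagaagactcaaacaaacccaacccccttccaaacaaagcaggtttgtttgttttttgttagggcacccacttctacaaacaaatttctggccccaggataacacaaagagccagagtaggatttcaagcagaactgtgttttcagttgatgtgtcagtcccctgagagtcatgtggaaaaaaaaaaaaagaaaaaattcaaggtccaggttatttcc
IGFBP4, chr17:40443200-40443449, plus strand: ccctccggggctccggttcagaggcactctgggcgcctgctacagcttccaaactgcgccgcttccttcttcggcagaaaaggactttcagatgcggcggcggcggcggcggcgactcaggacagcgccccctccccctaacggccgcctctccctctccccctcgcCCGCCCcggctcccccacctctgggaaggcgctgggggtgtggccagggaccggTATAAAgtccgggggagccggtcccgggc
IGFBP5, chr2:216695550-216695799, minus strand: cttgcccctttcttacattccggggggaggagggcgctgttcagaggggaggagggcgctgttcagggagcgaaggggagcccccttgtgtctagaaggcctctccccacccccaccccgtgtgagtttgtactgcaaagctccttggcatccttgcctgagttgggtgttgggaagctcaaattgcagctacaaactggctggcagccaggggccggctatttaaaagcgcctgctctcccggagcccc

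The IGFBP3 window was 76.0% G or C, with overlapping TATANA matches 32 and 30 bases and GGGCGG 98 and 6 bases before the start. That RefSeq start is not the GENCODE start of the gene: the whole window lies inside the GENCODE span (45912245 to 45921874). The IGFBP4 window was 71.6% G or C, with TATANA 29 bases and GGGCGG 83 bases before the start. The IGFBP5 window (61.2%) and the IGF1 window (39.6%) held neither motif. A second IGF1 window, not shown (chr12:102478551-102478800, minus strand, 44.0%), held neither as well. Only exact matches to the patterns were counted, so sequences close to them were passed over. The median G or C content over all 35116 promoter windows was 58.0%. Among these windows, 42.6% held GGGCGG and 17.7% held TATANA, motifs that were chosen after the sequences had been seen. CAGAC, the box bound by the SMAD proteins downstream of TGF-β receptors, was searched on both strands. It was in none of the 4 windows shown and in 38% of all windows. The letters are therefore not in these stretches, which says nothing of binding elsewhere.

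Of the binding proteins, IGFBP3 (ENSG00000146674, chromosome 7, 45912245 to 45921874, minus strand), the main carrier of IGFs in blood, changed most. It stood at 94.1 and 89.5 CPM in shMock control and 1077 and 1084 CPM with TGF-β1, and at 51.4 and 48.2 CPM in shMTHFD2 control and 809 and 737 CPM with TGF-β1. No 2 groups overlapped. TGF-β1 raised it 11.8-fold in shMock (log2 fold change of 3.56 with SE 0.09, edgeR adjusted p = 5.1e-13) and 15.5-fold in shMTHFD2 (3.96, SE 0.09, edgeR adjusted p = 4.2e-13). In the knockdown line it was 1.84-fold lower without TGF-β1 (-0.88, SE 0.09, edgeR adjusted p = 1.6e-05) and 1.40-fold lower with it (-0.48, SE 0.08, edgeR adjusted p = 0.0011). These 4 calls held in all alternatives run. The 2 responses to TGF-β1 did not differ past the threshold (interaction 0.40, SE 0.12, edgeR adjusted p = 0.22). Its neighbour IGFBP1, 18.6 kb away, had a single count, in shMTHFD2 TGF-β1 1.

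IGFBP7 (ENSG00000163453, chromosome 4, 57030773 to 57110385, minus strand), a secreted matrix-associated protein that binds IGFs weakly, was the other binding protein to rise. Its level was 993 and 1046 CPM in shMock control and 1550.1 and 1486 CPM with TGF-β1, and 828 and 768 CPM in shMTHFD2 control and 1321 and 1251 CPM with TGF-β1. The groups did not overlap, and in each condition both knockdown libraries were below both shMock libraries. The rise was 1.49-fold in shMock (log2 fold change of 0.57 with SE 0.08, edgeR adjusted p = 5.8e-05) and 1.61-fold in shMTHFD2 (0.69, SE 0.08, edgeR adjusted p = 1.2e-05). Without TGF-β1 it was 1.28-fold lower in the knockdown line (-0.35, SE 0.08, edgeR adjusted p = 0.012), a call lost without shMTHFD2 control 2 (0.149) or shMock control 2 (0.158). With TGF-β1 the difference was -0.24 (SE 0.08, edgeR adjusted p = 0.068), and it passed with DESeq2 (adjusted p = 0.0077) and with GC and length offsets (edgeR adjusted p = 0.0117). POLR2B overlaps IGFBP7 on the opposite strand and stood at group means of 115 to 136 CPM.

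IGFBP4 (ENSG00000141753, chromosome 17, 40443461 to 40457731, plus strand), which restrains IGF action until PAPPA cleaves it, fell with TGF-β1. It stood at 1188 and 1227 CPM in shMock control and 762 and 685 CPM with TGF-β1, and at 1007 and 959 CPM in shMTHFD2 control and 695 and 712 CPM with TGF-β1. Both treated groups lay below both control groups, and the treated groups overlapped each other. It was 1.67-fold lower in shMock (log2 fold change of -0.74 with SE 0.08, edgeR adjusted p = 4.8e-06) and 1.40-fold lower in shMTHFD2 (-0.48, SE 0.08, edgeR adjusted p = 3.9e-04). With GC and length offsets the shMock value was -0.46 and still passed (edgeR adjusted p = 5.7e-04). The knockdown line had 1.23-fold less without TGF-β1 (-0.30, SE 0.08, edgeR adjusted p = 0.030), but this call was lost in 6 of 8 fits that left out 1 library (any of the 4 controls or either treated shMTHFD2 library, adjusted p up to 0.246), on library totals (0.0692) and with GC and length offsets (0.138). With TGF-β1 the difference was -0.04 (edgeR adjusted p = 0.80).

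IGFBP5 (ENSG00000115461, chromosome 2, 216672105 to 216695525, minus strand), a binding protein that also attaches to the matrix, was lower in the knockdown line in both conditions. It stood at 930.3 and 829 CPM in shMock control and 625 and 578 CPM with TGF-β1, and at 484 and 498 CPM in shMTHFD2 control and 415 and 436 CPM with TGF-β1. The order was the same in all libraries, from shMock control down to shMTHFD2 TGF-β1, with no overlap between groups. The knockdown line was 1.79-fold lower without TGF-β1 (log2 fold change of -0.84 with SE 0.08, edgeR adjusted p = 1.8e-05) and 1.41-fold lower with it (-0.50, SE 0.08, edgeR adjusted p = 0.0013). Treatment lowered it 1.46-fold in shMock (-0.55, SE 0.08, edgeR adjusted p = 1.2e-04). In shMTHFD2 the value was -0.20 and did not pass (SE 0.08, edgeR adjusted p = 0.096), though it did on library totals (0.0059) and with GC and length offsets (0.043). The difference between these responses did not pass either (interaction 0.34, SE 0.12, edgeR adjusted p = 0.27).

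IGFBP6 (ENSG00000167779, chromosome 12, 53097436 to 53102345, plus strand), which prefers IGF2 as its ligand, stood at 101 and 109 CPM in shMock control and 59.8 and 51.0 CPM with TGF-β1, and at 80.3 and 61.8 CPM in shMTHFD2 control and 57.7 and 50.02 CPM with TGF-β1. The treated groups overlapped each other and lay below all controls, and the 2 shMTHFD2 controls were spread more widely than the other pairs for this gene. TGF-β1 lowered it 1.89-fold in shMock (log2 fold change of -0.92 with SE 0.12, edgeR adjusted p = 2.5e-05; -0.61 with GC and length offsets). In shMTHFD2 the log2 fold change was -0.40 (SE 0.12, edgeR adjusted p = 0.024), a call lost without shMTHFD2 TGF-β1 2 (0.194), and without shMTHFD2 control 1 the value was -0.21 (0.269). Without TGF-β1 the knockdown line was 1.47-fold lower (-0.56, SE 0.12, edgeR adjusted p = 0.0063). That call was lost without shMock control 2 (-0.49, 0.0642), and without shMTHFD2 control 2 the value was -0.37 (0.103). With TGF-β1 the lines were at -0.04 (edgeR adjusted p = 0.86). The interaction was 0.52 (SE 0.17, edgeR adjusted p = 0.25), and it passed without the low-count filter (edgeR adjusted p = 0.0234). That fit called the interaction for 172 genes higher and 149 lower, against 5 and 7 with the filter. Over all alternatives run the IGFBP6 interaction ranged from 0.226 to 0.685, the highest being without shMTHFD2 control 1. Over the fits without 1 library the lowest was 0.312.

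IGFBP2 (ENSG00000115457, chromosome 2, 216632828 to 216664436, plus strand) lies 7.67 kb from IGFBP5. It had 1 and 5 counts in shMock control, 2 and 0 in shMock TGF-β1, 1 and 2 in shMTHFD2 control and 0 in both shMTHFD2 TGF-β1 libraries, and only shMock control 2 was above the floor. Its IGFBP5 neighbour, in contrast, had at least 8136 counts in every library.

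**Figure D2:**
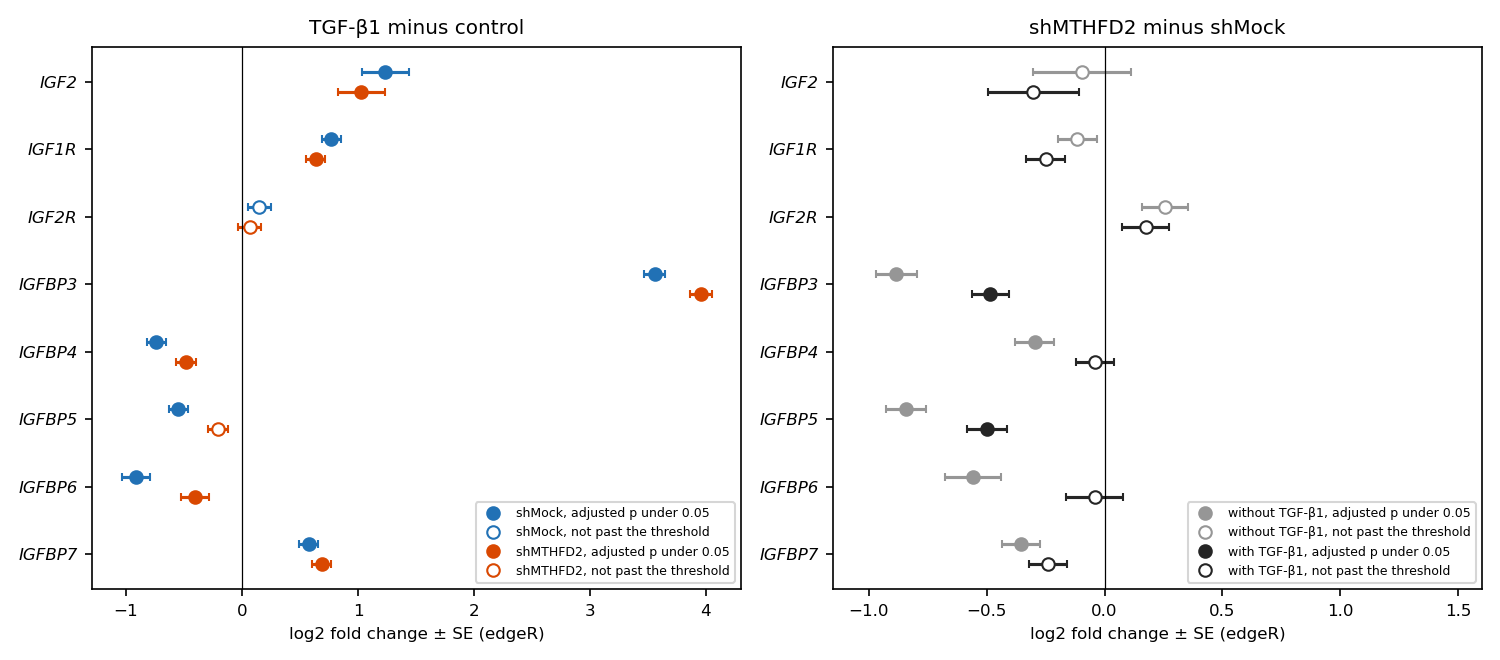
The log2 fold changes of 8 IGF-axis genes with their standard errors, for TGF-β1 minus control in each line (left) and shMTHFD2 minus shMock in each condition (right). Filled points passed an edgeR adjusted p of 0.05. IGF1, at the floor in controls, and the untested IGFBP2 are not drawn. IGFBP3 stands apart on the left at 3.56 and 3.96, and every filled point on the right lies below 0.

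For the knockdown comparisons, which share libraries with the TGF-β1 comparisons and with the interaction, 5 of the 9 tested members fell without TGF-β1 and none rose, beside 11.4% of all tested genes called, 3.25% higher and 8.19% lower. They were IGFBP3, IGFBP4, IGFBP5, IGFBP6 and IGFBP7, that is, all 5 tested binding proteins. Of them, 2 remained called without shMTHFD2 control 2 and 2 without shMock control 2, which in both cases were IGFBP3 and IGFBP5. With TGF-β1, IGFBP3 and IGFBP5 fell and none rose, beside 13.1% of all genes, 4.83% higher and 8.23% lower. DESeq2 and the fit with GC and length offsets called 4 members here, adding IGF1R and IGFBP7. Library totals gave 755 genes higher and 740 lower without TGF-β1, against 438 and 1105 here, and 1338 and 717 with it, against 652 and 1110, and turned the uncalled values of IGFBP4 and IGFBP6 with TGF-β1 to 0.05 each. The members' median log2 fold change was -0.35 without TGF-β1 and -0.24 with it, against -0.01 and 0.01 over all tested genes. The interaction test called 0 of 9 members, with edgeR and with DESeq2, beside 0.0889% of all genes, 0.0371% higher and 0.0519% lower. At an unadjusted p under 0.05, each tool had 4 members (IGFBP3, IGFBP4, IGFBP5 and IGFBP6), all with values above 0 in these 2 fits. With GC and length offsets the IGFBP4 value was -0.0106. The share of all tested genes at this unadjusted cut is not given here, so nothing is drawn from the count.

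Per kilobase of annotated exons, which allows levels of different genes to be set side by side, IGFBP4, IGFBP7, IGFBP5 and IGFBP6 were the most abundant members in both control groups. In shMock control, IGFBP4 stood at 549 CPM per kb, IGFBP7 at 528, IGFBP5 at 137, IGFBP6 at 77.8, IGFBP3 at 20.1, IGF2R at 17.2, IGF1R at 5.95 and IGF2 at 1.19 CPM per kb. The first 2 in this order lay close together: they swapped places when the longest transcript was used as the length. In shMock TGF-β1 the order was IGFBP7 at 787, IGFBP4 at 329, IGFBP3 at 236 and IGFBP5 at 93.4 CPM per kb, followed by IGFBP6 at 41.2, IGF2R at 19.1, IGF1R at 10.1, IGF2 at 2.80 and IGF1 at 0.393 CPM per kb. IGFBP3 thus moved from the fifth to the third place among the members. In shMTHFD2 control IGFBP3 stood at 10.9 CPM per kb, below IGF2R at 20.6, and in shMTHFD2 TGF-β1 it was again the third, at 169 CPM per kb. With the longest transcript as the length it was the second in both treated groups, level with IGFBP4 in shMTHFD2.

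Expressed as shares of the summed CPM per kb of the 6 binding proteins, IGFBP3 made up 1.53% ± 0.0824 in shMock control and 15.9% ± 0.684 in shMock TGF-β1 (SD, n = 2). In shMTHFD2 it made up 1.09% ± 0.00061 without and 13.4% ± 0.532 with TGF-β1. IGFBP4, in the opposite direction, went from 41.8% ± 0.177 to 22.1% ± 0.828 in shMock and from 44.7% ± 0.543 to 25.4% ± 1.09 in shMTHFD2. IGFBP7 was at 40.3% ± 0.742 and 52.9% ± 0.457 in shMock and at 41.3% ± 0.320 and 52.8% ± 0.643 in shMTHFD2. IGFBP5 was at 10.4% ± 1.04 and 6.28% ± 0.107 in shMock, and at 7.63% ± 0.505 and 5.24% ± 0.317 in shMTHFD2. The summed pool itself was 1311 ± 24.3 CPM per kb in shMock control, 1486 ± 57.0 in shMock TGF-β1, 1000.1 ± 46.0 in shMTHFD2 control and 1261 ± 32.9 in shMTHFD2 TGF-β1. With the longest transcript as the length, a setting added after the data were seen, the IGFBP3 share was 2.49% and 22.6% in shMock and 1.77% and 19.3% in shMTHFD2. That of IGFBP7 was 46.6% and 53.6% in shMock and 47.9% and 54.4% in shMTHFD2, a smaller change with TGF-β1 than per kb of exons. The shares of IGFBP3 and IGFBP7 therefore depend on the length used. With either length, the IGFBP3 difference between treated and control libraries was larger than the spread between replicates. These shares were not tested.

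**Figure D3:**
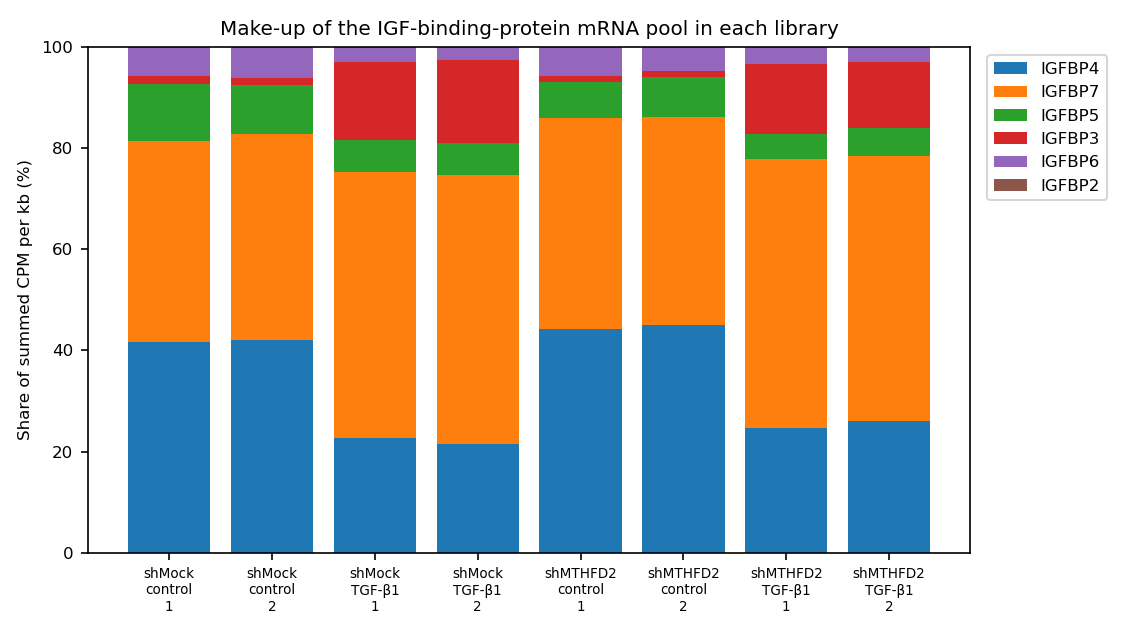
Share of each of 6 binding proteins in their summed CPM per kb of exons (vertical axis, percent), with 1 bar for each of the 8 libraries. IGFBP3 takes 1.09 to 1.59% in the control libraries and 13.0 to 16.4% with TGF-β1, and IGFBP4 takes 41.7 to 45.1% and 21.5 to 26.1%.

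The other genes of the pathway came from a list of 51 symbols for binding-protein relatives, proteases, receptors and signalling steps, of which 41 were tested. With TGF-β1, 17 rose and 6 fell in shMock, and 14 rose and 5 fell in shMTHFD2, where 11 in all were called without shMTHFD2 TGF-β1 2. Of all 13493 genes tested, 17.3% rose and 18.1% fell in shMock, and 12.8% rose and 11.0% fell in shMTHFD2. The median log2 fold change over the 41 was 0.00 and 0.11. The tested proteases on this list that cut IGF-binding proteins were ADAM12, PAPPA and HTRA1, and all 3 rose in both lines. Proteases outside the list were not looked at. ADAM12 went from 2.20 and 1.82 CPM to 29.4 and 25.5 CPM in shMock, and from 2.08 and 1.5 CPM to 28.3 and 28.8 CPM in shMTHFD2. Its rise of 13.6-fold (log2 fold change of 3.76 with SE 0.18, edgeR adjusted p = 4e-10) and 15.8-fold (3.98, SE 0.19, edgeR adjusted p = 3.5e-10) was near that of IGFBP3 in size. PAPPA, which cleaves IGFBP4, stood at 136 and 110.1 CPM in shMock control and 289 and 267 CPM with TGF-β1, and at 111 and 125 CPM and 236 and 252 CPM in shMTHFD2. It rose 2.26-fold (1.17, SE 0.10, edgeR adjusted p = 2.9e-07) and 2.07-fold (1.05, SE 0.10, edgeR adjusted p = 1.3e-06). HTRA1 rose 1.98-fold and 2.39-fold, to 568 ± 22.1 and 640.3 ± 40.4 CPM.

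STC1, a secreted inhibitor of PAPPA, went the other way. It stood at 31.1 and 36.3 CPM in shMock control and 20.5 and 11.6 CPM with TGF-β1, and at 30.6 and 37.0 CPM and 13.2 and 12 CPM in shMTHFD2, with log2 fold changes of -1.06 (SE 0.19, edgeR adjusted p = 5.4e-04) and -1.42 (SE 0.20, edgeR adjusted p = 5.8e-05). STC2, also on this list, passed in neither line. Its log2 fold change was 0.39 in shMock (SE 0.31, edgeR adjusted p = 0.36) and -0.15 in shMTHFD2 (SE 0.32, edgeR adjusted p = 0.78). SOCS2, a brake on growth-hormone signalling, fell in both lines (-0.83 and -0.79). SOCS3, a brake on cytokine receptors, fell in shMock (-1.10) and in shMTHFD2 (-0.38, edgeR adjusted p = 0.032), and the latter was lost in 3 of 8 fits that left out 1 library (shMTHFD2 TGF-β1 1 or 2, or shMTHFD2 control 1).

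Below the receptors, the adaptor IRS1 stood at 140 ± 12.8 CPM in shMock control and 241 ± 1.62 CPM with TGF-β1, and at 125 ± 1.71 CPM and 234 ± 7.46 CPM in shMTHFD2. It rose by 0.78 (SE 0.08, edgeR adjusted p = 2.6e-06) and 0.91 (SE 0.08, edgeR adjusted p = 6.2e-07) on the log2 scale. Its relative IRS2 fell in shMock (-0.36, SE 0.10, edgeR adjusted p = 0.013) and stood at 0.09 in shMTHFD2 (edgeR adjusted p = 0.58). The IRS2 call in shMock was lost without shMock TGF-β1 2 (0.104), without shMock control 1 (0.161) and with GC and length offsets (0.0578). The insulin receptor INSR was low throughout, between 1.65 and 3.52 CPM, with log2 fold changes of -0.51 and 0.72 that did not pass (edgeR adjusted p = 0.28 and 0.14).

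Between the lines, 4 of the 41 pathway genes were higher and 4 lower without TGF-β1, and 3 were higher and 5 lower with it. Of all genes tested, 3.25% were higher and 8.19% lower without TGF-β1, and 4.83% and 8.23% with it. Left-out libraries took the first total from 8 to 3 (without shMTHFD2 control 2) or 5 (without shMock control 2), and the second from 8 to 5 (without the first treated library of either line) or 4 (without shMTHFD2 TGF-β1 2). PIK3R3, a regulatory subunit of PI3K, was 1.62-fold higher without TGF-β1 (50.8 ± 4.34 against 31.3 ± 0.266 CPM, edgeR adjusted p = 3.1e-04) and 1.41-fold higher with it (40.6 ± 0.340 against 28.8 ± 1.11 CPM, edgeR adjusted p = 0.0045). IGF2BP3, an RNA-binding protein named for its contact with IGF2 mRNA, was lower in the knockdown line in both conditions (log2 fold changes -0.42 and -0.58, edgeR adjusted p = 0.0029 and 2.1e-04). CRIM1, a membrane protein with an IGFBP-like domain, was lower as well (-0.49 and -0.45, edgeR adjusted p = 0.0024 and 0.0044), the latter lost without shMTHFD2 TGF-β1 1 (0.0622). GSK3B, a kinase that AKT inhibits, was lower with TGF-β1 (-0.46, edgeR adjusted p = 0.0018). Calls lost when 1 library was left out were FOXO4 (0.53), PIK3R1 (0.40) and IRS2 (-0.44) without TGF-β1, and PIK3R2 (0.34) and TSC2 (0.29) with it. FOXO4 was lost without any 1 of the 4 control libraries, PIK3R1 without shMTHFD2 control 2 or either shMock control, and IRS2 without shMTHFD2 control 2 or shMock control 1. PIK3R2 was lost without either shMTHFD2 TGF-β1 library or shMock TGF-β1 2, and TSC2 without either shMTHFD2 TGF-β1 library, shMock TGF-β1 1 or shMock control 2. The interaction test called none of the 41 with edgeR and 1 with DESeq2. With each tool 9 had an unadjusted p under 0.05, 5 of them with values above 0, and the share of all genes at that cut is not given here. LRP1, HTRA1 and SHC1, the most abundant of the 41, had interaction values of -0.20, 0.27 and -0.09, none of them called. With 1 library left out these ranged from -0.457 to -0.0233, from 0.178 to 0.334 and from -0.157 to -0.0168.

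**Figure D4:**
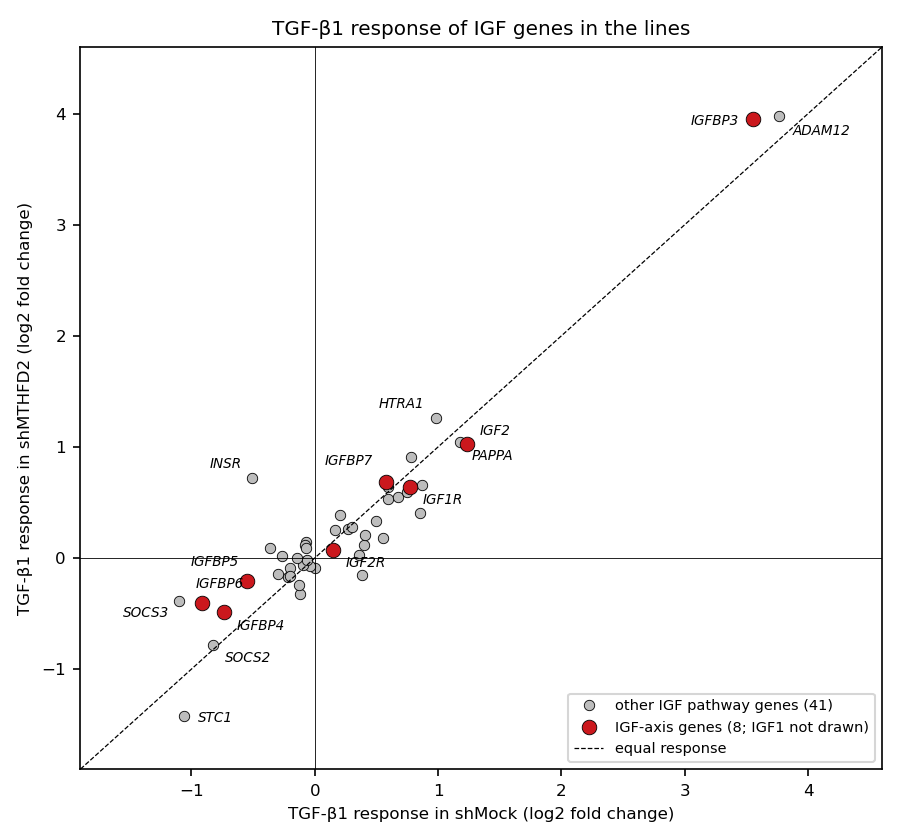
TGF-β1 response in shMTHFD2 (vertical axis, log2 fold change) against that in shMock (horizontal axis) for 8 IGF-axis genes and 41 other pathway genes, with the line of equal response dashed. IGFBP3 and ADAM12 lie together at the upper right, between 3.56 and 3.98 on both axes, and STC1 lies lowest at -1.06 and -1.42.

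Among 9798 genes averaging 10 CPM or more, the profiles over the 8 libraries most like that of IGFBP3 were those of MEST, CXXC5 and FAP, with Pearson r of log2(CPM + 1) from 0.9986 to 0.9996. MEST, an imprinted gene, stood at group means of 164 CPM in shMock control, 656 CPM in shMock TGF-β1, 113 CPM in shMTHFD2 control and 553 CPM in shMTHFD2 TGF-β1, the order that IGFBP3 also had. FAP, a surface protease of activated fibroblasts, stood at 149, 355, 124 and 307 CPM in the same groups. For IGFBP5, the interferon-induced IFITM3 and the phosphatase PPM1B were among the nearest profiles (r of 0.9881 and 0.9845). IFITM3 stood at 646, 487, 448 and 393 CPM in the same group order. For IGF1 they were the tetraspanin CD82, the metalloprotease ADAMTS7 and the lysosomal ATP13A2 (r from 0.9933 to 0.9956), and CD82 stood at 50.9, 124, 48.2 and 166 CPM. The 8 libraries fall into 4 groups, so these values describe 4 group levels and carry no test.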

How the data were processed

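The table deposited by the authors gives raw counts (whole numbers) of 60666 Ensembl IDs in the 8 libraries, although its name speaks of FPKM. STAR 2.7.1a, DESeq2 1.32.0 and GRCh38 are listed, without roles, per the submitters' processing notes. How reads were counted, and whether by strand, is not given in the sources used here. Symbols matched 60437 IDs, and positions, lengths and overlaps came from GENCODE release 29 (58420 IDs).

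All 8 libraries entered 1 edgeR 4.0.16 quasi-likelihood fit (R 4.3.3) with a mean per group, TMM factors (0.914 to 1.07) and 4 residual degrees of freedom, over the 13493 genes averaging 1 CPM or more, which hold 99.8 to 99.9% of the counts. The common biological coefficient of variation was 8.79%. P-values were Benjamini-Hochberg adjusted over all of them and called under 0.05. Levels are CPM on TMM-scaled totals, and standard errors, derived from the F statistic, are approximate. Comparisons were TGF-β1 in each line, the knockdown in each condition, and their interaction (the response in shMTHFD2 minus that in shMock). On simulated data for the shMock response over 13493 genes, the test recovered 94% of 2-fold, 58% of 1.5-fold and 100% of 3-fold increases. The simulation changed 50 genes for each fold and gave every gene the same biological spread, so recovery in the measured data may differ.

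Alternatives were DESeq2 1.42.0, median-of-ratios factors, library totals, no filter, GC and length offsets, a replicate block and leaving out each library. The members and gene lists were chosen with earlier results of these data known. Named genes were all members, MTHFD2, up to 3 pathway genes per direction and comparison by size of a called change (the 3 most abundant where fewer than 3 passed), IGFBP1, PAPPA, INSR, IRS1, IRS2 and H19, and the 3 profiles nearest to IGFBP3, IGFBP5 and IGF1. Lists of fibroblast, myofibroblast, epithelial, endothelial, immune, and smooth muscle and pericyte markers served to check the cell type. Not all genes that these rules name are reported here, and STC2 is given beside STC1 outside them. Protein sequences were not used here.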

Additional observations from a re-analysis of the deposited data

How the results depend on the processing

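The counts of members called with TGF-β1 stayed within 1.5 times in all alternatives run: 8 of 9 in shMock in each fit without 1 library, and 6 to 7 in shMTHFD2. The other pathway genes called in shMTHFD2 ran from 11 to 19. Without TGF-β1, the knockdown calls ran from 2 to 5 members, 3 to 10 pathway genes and 585 to 1681 genes in all over the fits without 1 library. With TGF-β1 they ran from 4 to 8 pathway genes and from 841 to 1820 genes in all. DESeq2 and the GC and length offsets each called 4 members there instead of 2, and library totals called 14 pathway genes instead of 8. The interaction was called for 12 genes in all, 88 with DESeq2 and 321 with no filter, and for 3 to 192 over the fits without 1 library (0 to 1 member). With no filter 1 member (IGFBP6) and 1 pathway gene were called, and DESeq2 called 1 pathway gene. The causes were not tested.

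The values that changed sign had not been called. On library totals, which put the median of all genes at -0.16 (shMock response), -0.12 (shMTHFD2 response) and 0.10 (knockdown with TGF-β1), they were the shMTHFD2 response of IGF2R (-0.0461) and IRS2 (-0.0209) and the knockdown with TGF-β1 of IGFBP4 (0.0505) and IGFBP6 (0.0492). With GC and length offsets they were the interactions of IGF2R (0.0304) and IGFBP4 (-0.0106). Over the fits without 1 library the ranges were -0.571 to 0.0586 for the IGF2 interaction, -0.218 to 0.0495 for that of IGF2R, -0.116 to 0.0455 and -0.16 to 0.0847 for the knockdown with TGF-β1 of IGFBP4 and IGFBP6, and -0.0137 to 0.185 for the shMTHFD2 response of IRS2. Across genes, fold changes followed GC content with a Spearman rho of -0.285 (shMock response), 0.329 (knockdown with TGF-β1) and 0.473 (interaction), and the offsets remove this trend.

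Same-numbered libraries did not deviate together (correlations from -0.0203 to 0.0687), so the numbers were not taken as a pairing. With the replicate block, 8, 7, 5, 2 and 0 members were called in the 5 comparisons, the counts without it, and no call of a member changed. Pathway genes called in the shMTHFD2 response went from 19 to 16. With 2 libraries a group, 1.5-fold changes were recovered less often than 2-fold ones in the simulated shMock response (58% against 94%), and IGF1 and IGFBP2 in untreated cells lie at the floor of 3 counts.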
